A study of Mus musculus with 15 samples.

Results

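The genes that move calcium in heart muscle in every beat were followed through their levels in atrial, trabecular and compact cardiomyocytes. They were chosen by name and not by their values: Cacna1c, Cacna2d2, Ryr2, Casq2, Atp2a2, Pln, Sln and Slc8a1, 8 of the 16809 genes in the deposited table. All 8 were present in it. They were read in whole mouse hearts at stage E14.5 of embryonic life (C57BL6/N background) by Drop-seq, a droplet method that tags each cell's transcripts near their 3′ end with a cell barcode and a molecular identifier (UMI), so that UMIs count molecules. The 8 homozygous Adamts19 knockout (KO) libraries carried either the allele labelled tm4b (KO5 to KO8, from litter 7) or the allele labelled tm4a (KO1 from litter 5, KO2 to KO4 from litter 6). The 7 wild-type (WT) libraries came from litters 1 to 4. Adamts19 encodes a secreted metalloprotease, and the series concerns heart valve disease after its loss. No litter held both genotypes or both alleles, so genotype and litter, and allele and litter, cannot be told apart. All KO libraries were on the same flow cell, which among the WT libraries held WT5 alone. Genotype and flow cell can therefore hardly be told apart either. The labels call the KO libraries and the later WT libraries biological replicates, but the number of embryos in a library and the deleted part of Adamts19 are not stated in the sources used here.

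In every heartbeat calcium enters a cardiomyocyte through L-type channels, of which Cacna1c encodes the pore and Cacna2d2 an auxiliary α2δ subunit, and this entry opens ryanodine receptors (Ryr2) that release calcium held in the sarcoplasmic reticulum by calsequestrin (Casq2). The muscle relaxes when the pump SERCA2 (Atp2a2), held back by phospholamban (Pln) and sarcolipin (Sln), returns calcium to the store, and when the sodium-calcium exchanger (Slc8a1) moves it out of the cell. In the mammalian heart Sln is known as an atrial gene and Pln as a gene that is stronger in the ventricle. Atrial and ventricular muscle therefore hold the inhibitors of the same pump in different proportions.

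Library totals ran over 5477109 to 10105950 UMIs in KO and 6215439 to 11340443 UMIs in WT. After removal of cells with under 300 detected genes, 50771 cells remained (28390 KO, 22381 WT). Adamts19 itself lay at 5.28 to 8.60 UMIs per 1000000 UMIs (CPM) over all cells of the KO libraries, against 15.8 to 49.9 CPM in the WT libraries, with no overlap. A set of 68 of 50692 barcode sequences occurred in more than 1 library, at most 6 in any pair. Haemoglobin transcripts made up at most 0.585% of the UMIs in KO and up to 5.78% in WT, where WT4 was highest.

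Clustering placed 21552 cells in cardiomyocyte-like clusters, 900 to 1861 per library. The labelled tissue is whole heart, so all other heart cell types were present too. Atrial-type cells numbered 4480, trabecular-type cells 1905, compact ventricular-type cells 8765, mitotic ventricular-type cells 5582 and mitotic atrial-type cells 820. The names rest on lists of marker genes. Compact cells came from cluster 0 (5101 cells) and cluster 4 (3664 cells), which had a median of 635.5 UMIs per cell and less Atp2a2 (456 against 624 CPM in cluster 0) and Casq2 (292 against 425 CPM). The atrial-type clusters averaged 28168 CPM of the atrial light chain Myl7, the trabecular-type cluster 14795 CPM of Nppa and 943 CPM of Gtsf1, and the compact clusters 12199 CPM of the ventricular light chain Myl2. The 8 genes and a wider list of calcium handling genes were left out of the genes used to cluster, but the classes were still drawn from the same cells. Sln and Cacna2d2 stood among the leading genes of atrial-type clusters, Casq2 of the trabecular-type cluster and Pln of a compact cluster. Their class differences are therefore given as a description, with no p-value, and adjusted p-values for the other genes between classes are not independent of how the classes were made.

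The 8 genes lie on 7 chromosomes (GENCODE annotation, build GRCm38). Cacna1c (ENSMUSG00000051331) occupies chr6:118587240-119196418 on the minus strand with 47 exons in its longest transcript. Cacna2d2 (ENSMUSG00000010066) lies at chr9:107399612-107529343 on the plus strand with 39 exons. Ryr2 (ENSMUSG00000021313), at chr13:11553102-12106945 on the minus strand, has 105 exons. Casq2 (ENSMUSG00000027861) is at chr3:102086415-102146514, plus strand, with 11 exons. Atp2a2 (ENSMUSG00000029467) is at chr5:122453513-122502225, minus strand, with 21 exons. Sln (ENSMUSG00000042045) at chr9:53850164-53854560 and Pln (ENSMUSG00000038583) at chr10:53337667-53345987 are small genes of 2 exons each on the plus strand. Slc8a1 (ENSMUSG00000054640) is at chr17:81373105-81738377, minus strand, with 8 exons. Pln overlaps Cep85l on the other strand and Cacna1c overlaps Dcp1b on the other strand. Both partners are counted in the table, with 1587 and 3057 UMIs, and reads from such a pair can be told apart only if counting used strand, which is not stated in the sources used here.

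Pln, Casq2 and Cacna2d2 gave the contrasts that the class comparisons turn on: Pln low in atrial-type cells, Casq2 highest in trabecular-type cells, and Cacna2d2 nearly absent from compact cells. Their promoter windows are printed for that reason, 250 bases before to 50 bases after the start in RefSeq (GRCm38.p6), 5′ to 3′ on the plus strand. Capitals mark matches to the letters searched on both strands.
Pln, chr10:53337436-53337735: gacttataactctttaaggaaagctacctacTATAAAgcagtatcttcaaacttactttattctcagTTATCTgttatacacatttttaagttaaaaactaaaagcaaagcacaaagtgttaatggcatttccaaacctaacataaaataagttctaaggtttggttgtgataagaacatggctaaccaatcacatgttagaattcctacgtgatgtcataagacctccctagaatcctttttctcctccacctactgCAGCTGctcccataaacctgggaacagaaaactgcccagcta
Casq2, chr3:102086165-102086464: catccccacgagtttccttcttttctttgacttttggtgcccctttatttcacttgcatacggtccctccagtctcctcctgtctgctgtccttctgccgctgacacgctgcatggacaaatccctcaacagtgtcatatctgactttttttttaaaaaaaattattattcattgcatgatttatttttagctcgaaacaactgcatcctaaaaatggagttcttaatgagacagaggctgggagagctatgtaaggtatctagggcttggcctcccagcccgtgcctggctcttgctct
Cacna2d2, chr9:107399630-107399929: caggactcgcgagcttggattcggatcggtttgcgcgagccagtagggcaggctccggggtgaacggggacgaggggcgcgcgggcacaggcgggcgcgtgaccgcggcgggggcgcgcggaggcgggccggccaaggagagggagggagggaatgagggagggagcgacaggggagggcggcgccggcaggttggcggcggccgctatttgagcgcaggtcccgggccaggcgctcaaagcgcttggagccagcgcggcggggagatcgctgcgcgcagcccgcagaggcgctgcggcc
A set of 6 motifs was searched, with the share of 32544 RefSeq promoters of the same length that hold each one. They were the GATA motif AGATAA (11.2%), the MEF2 motif TATTTATA (1.71%), the E-box CAGCTG (16.4%), the TATA box TATAAA (13.6%), the T-box motif AGGTGT (13.8%) and the NKX2 motif AAGTGG (16.8%). TATTTATA contains TTTATA, the reverse complement of TATAAA, so those matches can overlap. The Pln window held 1 TATA box, 1 AGATAA on the minus strand (printed as its reverse complement) and 1 CAGCTG, and the other windows held none of these letters. A match is only a run of letters, and its absence says nothing of a factor. Promoter entries were found for 6 of the 8 genes, not for Sln or Atp2a2.

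Most molecules of the 8 genes came from heart muscle. The share of a gene's UMIs found in cardiomyocyte-like cells was 94.8% for Casq2, 94.0% for Pln, 93.6% for Sln, 90.7% for Slc8a1, 90.3% for Ryr2, 89.7% for Cacna2d2, 83.1% for Cacna1c and 82.7% for Atp2a2. Pln was counted most often, with 127823 UMIs, and Cacna1c least, with 2505. These totals depend on how well each 3′ end was captured, and levels are compared below only within a gene.

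**Figure D1:**
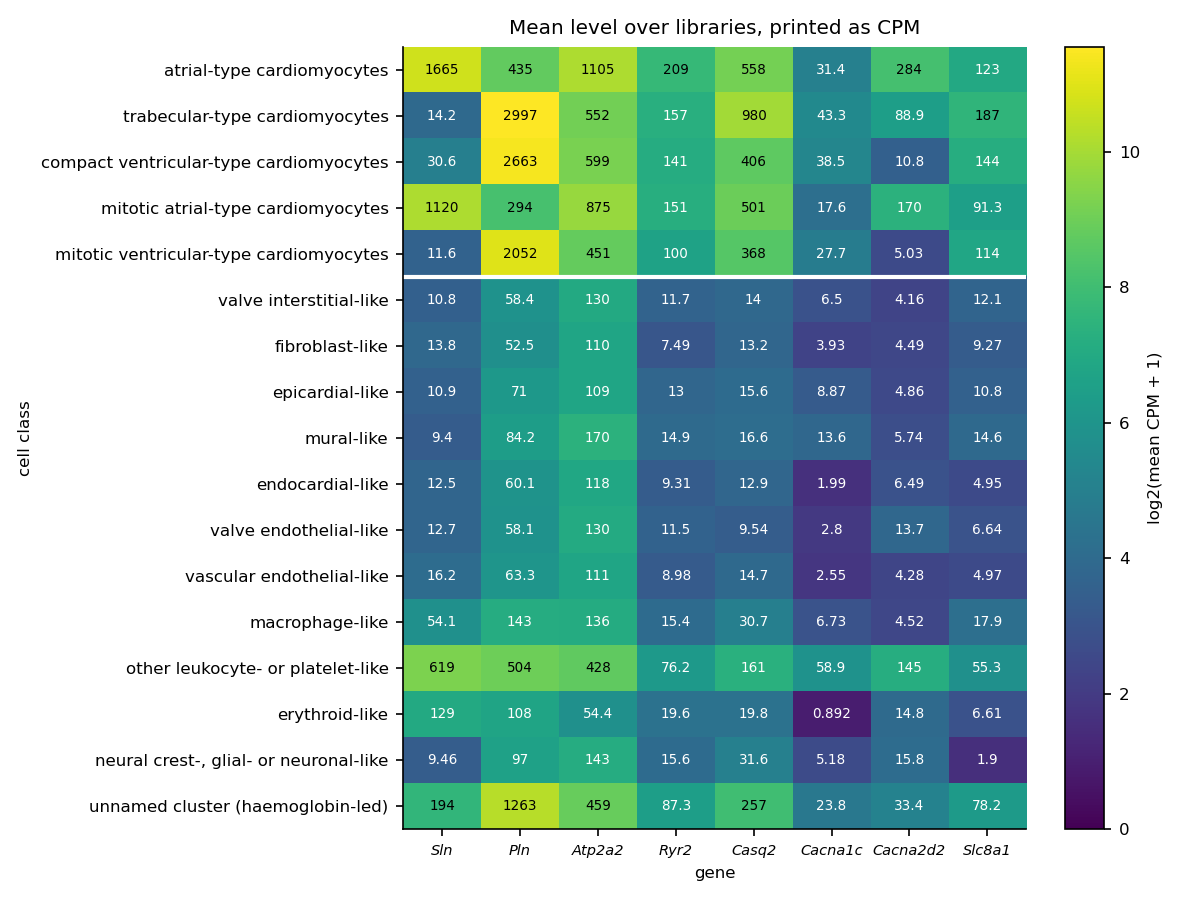
Mean level of each gene in each cell class, on a log colour scale of CPM + 1 with the mean CPM printed in each field; rows are cell classes, columns are genes. Sln is bright in the atrial-type rows (1665 CPM) and Pln in the ventricular-type rows (2997 CPM in trabecular-type, 2663 CPM in compact cells). In the classes outside muscle, except the 2 that carry cardiomyocyte transcripts, Sln lies at 9.40 to 129 CPM and Pln at 52.5 to 143 CPM. Atp2a2 lies at 54.4 to 170 CPM in the same classes.

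Outside muscle, the levels were low. Sln averaged 9.4 to 54.1 CPM in endocardial, epicardial, fibroblast, macrophage, mural, neural crest or neuronal, vascular and valve classes, and Pln 52.5 to 142.8 CPM. In macrophages, where Sln was highest of these, KO3 alone gave 49 of 105 UMIs, and in erythroid cells Sln averaged 129 CPM. Free RNA from muscle gives such counts in any class, so the levels were also set against the cardiomyocyte markers. Per 100 UMIs of those markers Pln had 1.52 to 2.72 UMIs in these classes, erythroid cells included, against 2.64 over cardiomyocyte-like cells. Atp2a2 had 1.23 to 4.73 UMIs, with 4.73 in fibroblasts and 4.60 in valve endothelial cells, against 0.884 over cardiomyocyte-like cells. Ryr2 had 0.222 to 0.431 UMIs, highest in valve interstitial cells, against 0.200. Cacna1c had 0.0601 to 0.387 UMIs, highest in mural cells, against 0.0458. These 3 genes exceeded their cardiomyocyte ratio in all of these classes, but Cacna1c did so narrowly and on few molecules in erythroid cells. Its ratio there was 0.0601, at a level of 0.892 ± 2.68 CPM (SD, n = 9 libraries). Cacna2d2 (0.0825 to 0.506 against 0.102), Slc8a1 (0.124 to 0.424 against 0.188), Sln (0.225 to 0.796 against 0.519) and Casq2 (0.293 to 1.06 against 0.668) lay on both sides of theirs, as did Pln. A cluster with platelet and leukocyte genes (157 cells) and a cluster left unnamed (2226 cells) had Sln at 619 and 194 CPM. Cardiomyocyte markers made up 4.79% and 4.40% of their UMIs, against 0.238% to 0.884% in the other classes outside muscle, so their levels of the 8 genes are not read as their own.

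Atrial-type cells differed from compact ventricular-type cells most in the inhibitors of the pump and in the channel's auxiliary subunit. Sln averaged 1665 ± 402 CPM in atrial-type and 30.6 ± 15.8 CPM in compact cells (SD, n = 15 libraries), and Cacna2d2 284 ± 66.2 CPM in atrial-type and 10.8 ± 3.50 CPM in compact cells. Pln went the other way, with 435 ± 87.4 CPM in atrial-type and 2663 ± 302 CPM in compact cells. The pump Atp2a2 was higher in atrial-type cells as well, at 1105 ± 316 CPM against 599 ± 206 CPM in compact cells. Sln, Cacna2d2, Atp2a2, Ryr2 and Casq2 were higher in atrial-type cells in 15 of 15 libraries and Pln lower in 15 of 15.

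By edgeR's quasi-likelihood test on UMIs summed per library and class, with library as a block, the log2 fold change in atrial-type over compact cells was 5.81 for Sln (SE 0.09), 4.75 for Cacna2d2 (SE 0.11) and -2.63 for Pln (SE 0.04). The compact levels of Sln and Cacna2d2 lay within the ranges of the classes outside muscle (4.16 to 15.8 CPM for Cacna2d2). The sizes of the fold changes of Sln and Cacna2d2 are therefore not exact. Casq2 was higher by 0.46 (SE 0.05) on the log2 scale. Atp2a2 rose by 0.90 (SE 0.05, edgeR adjusted p = 1.2e-28) and Ryr2, the release channel, by 0.60 (SE 0.06, edgeR adjusted p = 2.1e-14). These genes are the store's pump, its buffer and its outlet. The exchanger Slc8a1 fell by 0.22 on the log2 scale (SE 0.07, edgeR adjusted p = 0.0037) and was lower in 11 of 15 libraries, and the pore Cacna1c fell by 0.26 on the log2 scale (SE 0.09, edgeR adjusted p = 0.0144) and was lower in 13 of 15. In the 8 KO libraries alone neither Slc8a1 (log2 fold change -0.19, edgeR adjusted p = 0.0907) nor Cacna1c (-0.15, edgeR adjusted p = 0.393) passed, and at a finer clustering Cacna1c stood at 0.0016 (edgeR adjusted p = 0.991) and Slc8a1 at -0.06. Of the 4 genes tested, Atp2a2, Ryr2, Slc8a1 and Cacna1c, 4 passed an adjusted p of 0.05 (2 higher, 2 lower), where 51.7% of the 7787 genes tested did (25.4% higher, 26.3% lower), so passing says little about these genes.

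Trabecular-type cells, the spongy inner layer of the ventricle, had more Casq2 and Cacna2d2 than the compact wall. Casq2 averaged 980.3 ± 198 CPM in trabecular-type and 406 ± 70.4 CPM in compact cells, and Cacna2d2 88.9 ± 44.5 CPM in trabecular-type and 10.8 ± 3.50 CPM in compact cells (SD, n = 15); both were higher in 15 of 15 libraries. The log2 fold change was 1.32 for Casq2 (SE 0.05) and 3.11 for Cacna2d2 (SE 0.16), both given without a test, and 0.22 (SE 0.04) for Pln, which was higher in 15 of 15. The compact level of Cacna2d2 lay within the range of the classes outside muscle, so the size of its fold change is not exact. Slc8a1 rose as well, with 187 ± 62.7 CPM in trabecular-type and 144 ± 44.5 CPM in compact cells and a log2 fold change of 0.41 (SE 0.07, edgeR adjusted p = 2.3e-06; higher in 14 of 15).

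Sln was lower in trabecular-type cells, at 14.2 ± 14.3 CPM against 30.6 ± 15.8 CPM in compact cells, and in 12 of 15 libraries. Both values lie within the range of the classes outside muscle, so neither is read as expression. In WT6 no Sln molecule was counted among 351533 trabecular-type UMIs, where a count of 0 allows up to 8.53 CPM (3 UMIs, counting error only). At a finer clustering the log2 fold change of Sln was -0.15, against -1.17 (SE 0.26) at the main one. Ryr2 (0.17, SE 0.07, edgeR adjusted p = 0.0459) passed narrowly and was higher in 8 of 15 libraries; it missed in 10 alternatives, among them the WT libraries alone (0.06, edgeR adjusted p = 0.716), no low-count filter (0.11, edgeR adjusted p = 0.281) and the fits without KO2, KO3, KO4, KO5, KO7 or WT4 (0.14 to 0.17). Atp2a2 (-0.10, SE 0.05, edgeR adjusted p = 0.129) and Cacna1c (0.24, SE 0.10, edgeR adjusted p = 0.0557) missed. Cacna1c passed in 9 alternatives (0.26 to 0.55), among them the fits without KO3, KO6, WT1, WT5 or WT7, and Atp2a2 passed as lower in 3 (-0.15 to -0.22), the WT libraries alone among them. Of the 4 genes tested 2 passed (2 higher), where 36.9% of the 7787 genes did (17.8% higher, 19.1% lower).

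Set against trabecular-type cells, atrial-type cells had more Sln (log2 fold change 6.98, SE 0.14), Cacna2d2 (1.65, SE 0.10), Atp2a2 (1.00, SE 0.05) and Ryr2 (0.42, SE 0.07). They had less Pln (-2.84, SE 0.05), Casq2 (-0.86, SE 0.05), Slc8a1 (-0.63, SE 0.08) and Cacna1c (-0.50, SE 0.12). The trabecular-type level of Sln lay within the range of the classes outside muscle, so the size of its fold change is not exact. Of the 4 genes tested all 4 passed in edgeR's test, 2 higher and 2 lower, where 34.9% of genes did (17.9% higher, 17% lower). Casq2 and Slc8a1 were lower in atrial-type cells in 15 of 15 libraries, Cacna1c in 14 of 15, and Ryr2 was higher in 14 of 15. The order of the classes in CPM thus differed from gene to gene. From high to low, Casq2 ran trabecular, atrial, compact; Slc8a1 trabecular, compact, atrial; Cacna2d2 atrial, trabecular, compact. For Cacna1c (43.3 ± 12.7 CPM in trabecular-type, 38.5 ± 13.3 CPM in compact and 31.4 ± 9.78 CPM in atrial-type cells) the neighbours in that order differed by less than the SD of their paired differences. The same held for Slc8a1 between compact (144 ± 44.5 CPM) and atrial-type cells (123 ± 39.1 CPM), and for Atp2a2 and Ryr2 between trabecular-type and compact cells.

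Mitotic cells, which were clustered apart, had the pattern of their chamber at lower CPM for Sln, Pln and Atp2a2. Sln averaged 1119.7 ± 601 CPM in mitotic atrial-type and 11.6 ± 6.33 CPM in mitotic ventricular-type cells, and Pln 294 ± 71.0 CPM in mitotic atrial-type and 2052 ± 167 CPM in mitotic ventricular-type cells. Atp2a2 averaged 875 ± 226 CPM in mitotic atrial-type and 451 ± 149 CPM in mitotic ventricular-type cells. Each of these means was below that of the non-mitotic cells of the same chamber.

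The balance of pump and inhibitors was read as a ratio of UMIs within a library, used only to compare classes. Pln molecules per Atp2a2 molecule averaged 0.420 ± 0.123 in atrial-type, 6.00 ± 2.18 in trabecular-type and 4.91 ± 1.60 in compact cells (SD, n = 15). The highest atrial-type ratio of any library, 0.662, was below the lowest compact ratio, 1.86, and the lowest trabecular-type ratio, 2.88. Sln molecules per Atp2a2 molecule averaged 1.66 ± 0.700 in atrial-type, 0.0284 ± 0.0288 in trabecular-type and 0.0618 ± 0.0538 in compact cells. So the chambers separated without overlap in Pln per pump, whatever the pump's own level in a library. Casq2 per Ryr2, the buffer against the release channel, averaged 6.74 ± 1.88 in trabecular-type, 2.81 ± 0.665 in atrial-type and 3.10 ± 0.768 in compact cells.

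Atrial-type cells were made of cluster 6 (3128 cells) and cluster 14 (1352 cells). Cluster 6 was led by Myl1 and Nppa, and cluster 14 by Vsnl1, Cacna2d2, Sln and Shox2, a transcription factor gene known from the sinus venosus and the pacemaker region. Cluster 14 also held more Hcn4, the pacemaker channel, at 41.7 CPM against 1.8 CPM in cluster 6. Cacna2d2 averaged 607 ± 166 CPM in cluster 14 and 137 ± 23.0 CPM in cluster 6 (SD, n = 15), higher in 15 of 15 libraries, and Sln 2154 ± 539 CPM in cluster 14 and 1437 ± 438 CPM in cluster 6, higher in 13 of 15. Atp2a2 and Casq2 ran the other way: Atp2a2 averaged 905 ± 268 CPM in cluster 14 and 1199 ± 325 CPM in cluster 6, and Casq2 419 ± 132 CPM in cluster 14 and 623 ± 106 CPM in cluster 6. They were lower in cluster 14 in 14 and 13 of 15 libraries. Ryr2 (245 ± 98.3 CPM in cluster 14, 196 ± 57.5 CPM in cluster 6) and Slc8a1 (141 ± 50.1 CPM in cluster 14, 115 ± 37.3 CPM in cluster 6) were higher in cluster 14 in 12 and 13 libraries, and Cacna1c in 8. These are descriptions with no test, since the clusters come from the same cells. The share of cluster 14 among atrial-type cells was 30.2 ± 6.35% in KO and 31.9 ± 11.1% in WT (SD, n = 8 and 7).

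**Figure D2:**
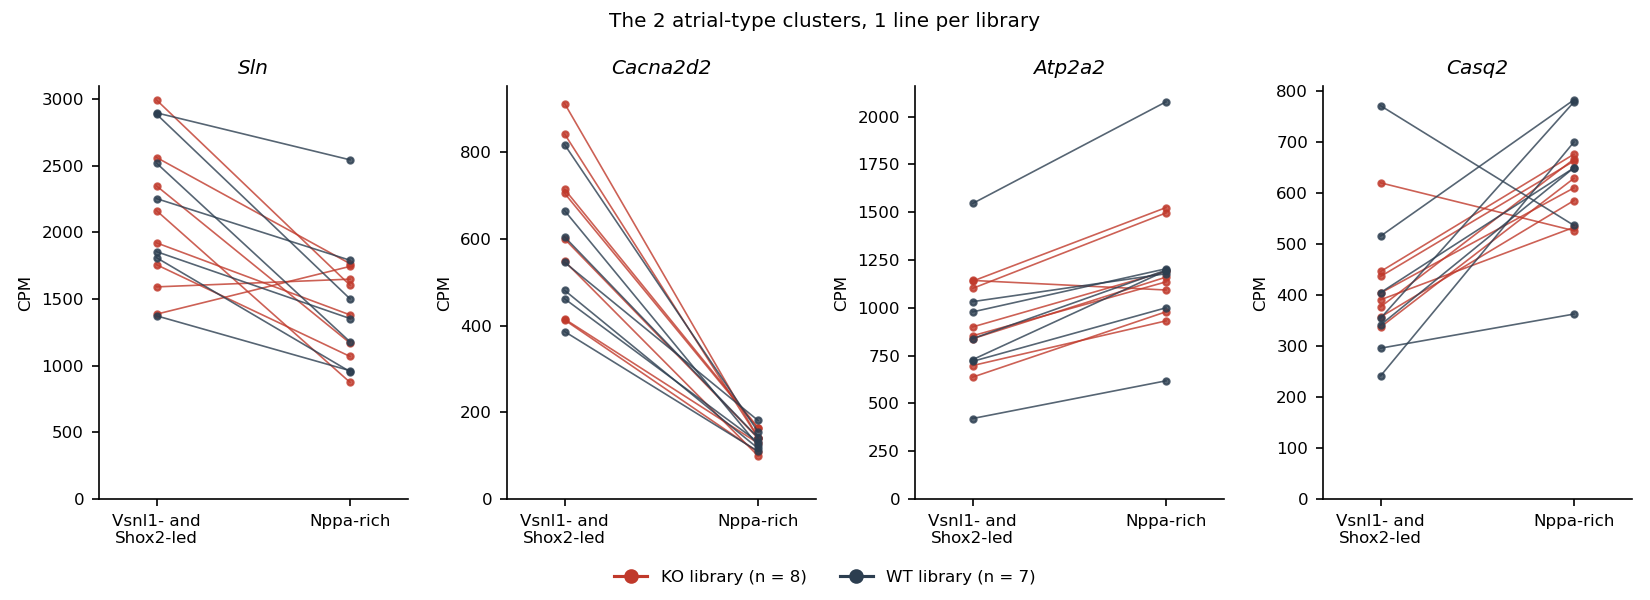
CPM of Sln, Cacna2d2, Atp2a2 and Casq2 in cluster 14 and cluster 6 of the atrial-type cells, with a line joining the 2 values of a library (n = 15, KO and WT in different colours). Lines for Cacna2d2 fall from cluster 14 to cluster 6 in 15 of 15 libraries, and those for Atp2a2 climb in 14 of 15.

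Other genes of calcium handling were read from a list of 46, of which 43 were in the table and 30 were tested between classes. In atrial-type over compact cells 19 of 30 rose, 5 fell and 6 did not pass, against 51.7% of all genes called (25.4% higher, 26.3% lower), and the list's median log2 fold change was 0.22 against -0.01 over all genes tested. Cacna1d, the pore of another L-type channel known from pacemaker cells, rose by 2.12 (SE 0.15), the mitochondrial uniporter Mcu by 1.11 (SE 0.16) and the store channel Tmem38a by 1.05 on the log2 scale, while S100a1, a calcium sensor that binds the ryanodine receptor, fell by 0.87. In trabecular-type over compact cells 16 of 30 rose and 4 fell, against 36.9% of all genes called (17.8% higher, 19.1% lower; median 0.30 against -0.03 over all genes), with Hrc, a calcium-binding protein of the store, up by 1.20, and triadin (Trdn), which anchors calsequestrin to the release channel, up by 0.83. Trdn averaged 901 CPM in trabecular-type, 710.5 CPM in atrial-type and 522 CPM in compact cells. In atrial-type over trabecular-type cells 8 rose and 11 fell, against 34.9% of all genes called (17.9% higher, 17% lower; median -0.13 against 0.02), with Cacna1d higher by 2.09 and S100a1 lower, at -1.20.

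The genes whose levels over 16 classes were most like each member were found by Pearson's r on log2(CPM + 5), among 10778 genes of at least 20 CPM in a class. They are given with no p, since the classes share libraries and all muscle classes rise together. Sln was most like Mybphl (r = 0.962) and Vsnl1 (0.946), and Pln most like Ckm (0.981) and Myl3 (0.980). Ryr2 was most like Nebl (0.989), Ldb3 (0.989) and Ttn (0.988), and Casq2 like Nebl (0.991) and Cox7a1 (0.988), Nebl, Ldb3 and Ttn being genes of the sarcomere. Cacna2d2 was most like Kcnj3 (0.941), a potassium channel gene, and Slc8a1 like Hopx (0.980). Atp2a2 was most like Ndufaf5 (0.975) and Entpd5 (0.969), and Cacna1c like Grtp1 (0.968) and Akap6 (0.951).

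Loss of Adamts19 was not accompanied by a detectable change in any of the 8 genes. Over all cardiomyocyte-like cells, Pln averaged 1906 ± 184 CPM in KO and 1993 ± 243 CPM in WT, Atp2a2 649 ± 128 CPM in KO and 671 ± 247 CPM in WT, and Casq2 489.8 ± 50.4 CPM in KO and 479.9 ± 90.3 CPM in WT (SD, n = 8 and 7). Ryr2 averaged 138 ± 24.9 CPM in KO and 151 ± 67.2 CPM in WT, and Slc8a1 134 ± 27.1 CPM in KO and 131 ± 52.7 CPM in WT. The KO and WT ranges overlapped for each of these genes. In atrial-type cells Sln ran at 1380.3, 1585 and 1995 CPM in KO (lowest, median and highest) and at 1102, 1805 and 2686 CPM in WT. In compact cells Pln ran at 2339.6, 2695 and 2946 CPM in KO and at 2203, 2443 and 3251 CPM in WT. For both genes the WT libraries reached past the KO libraries at both ends. Casq2 in trabecular-type cells ran at 829, 1024 and 1412 CPM in KO and at 583, 906 and 1231 CPM in WT, with KO7 highest and WT4 lowest. Cacna1c had the lowest log2 fold change, -0.28 (SE 0.17, edgeR adjusted p = 0.408; 30.7 ± 5.58 CPM in KO, 37.0 ± 15.2 CPM in WT). Cacna2d2 had the highest, 0.20 (SE 0.13, edgeR adjusted p = 0.460; 81.5 ± 21.5 CPM in KO, 69.6 ± 7.99 CPM in WT).

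None of the 8 passed an adjusted p of 0.05 in all cardiomyocyte-like cells, where 1.36% of 11266 genes did (edgeR). None passed in atrial-type cells (0.314% of 7330 genes), in compact cells (0.444% of 9000) or in trabecular-type cells (0.0215% of 4653; 7 tested, Sln being too low). Below an unadjusted p of 0.05 there were also 0 of the 8 in each of the 4 comparisons, and DESeq2 called 0 as well. The 95% intervals of the log2 fold changes ran from -0.62 to 0.53 over all cardiomyocyte-like cells, -0.50 to 0.53 in atrial-type, -1.07 to 0.81 in compact and -0.67 to 0.53 in trabecular-type cells, each bound being the widest of the 8 genes. Sln in compact cells, at 26.4 ± 11.3 CPM in KO and 35.4 ± 19.5 CPM in WT, set the lowest of these bounds. Single genes were bounded more tightly, with Casq2 over all cells between -0.20 and 0.24 and Pln in compact cells between -0.24 and 0.23. Of the wider calcium list 0 of 35, 0 of 30, 0 of 31 and 0 of 24 genes passed edgeR's test in the same 4 comparisons. At an unadjusted p under 0.05 there were 8, 7, 7 and 3 of them, against 1883 of 11266, 893 of 7330, 1257 of 9000 and 369 of 4653 genes in all. DESeq2 called 3 of the list over all cardiomyocyte-like cells (1 higher, 2 lower), against 422 genes in all, and 0 of it in each class. Each allele set alone against WT also gave no member past the threshold.

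**Figure D3:**
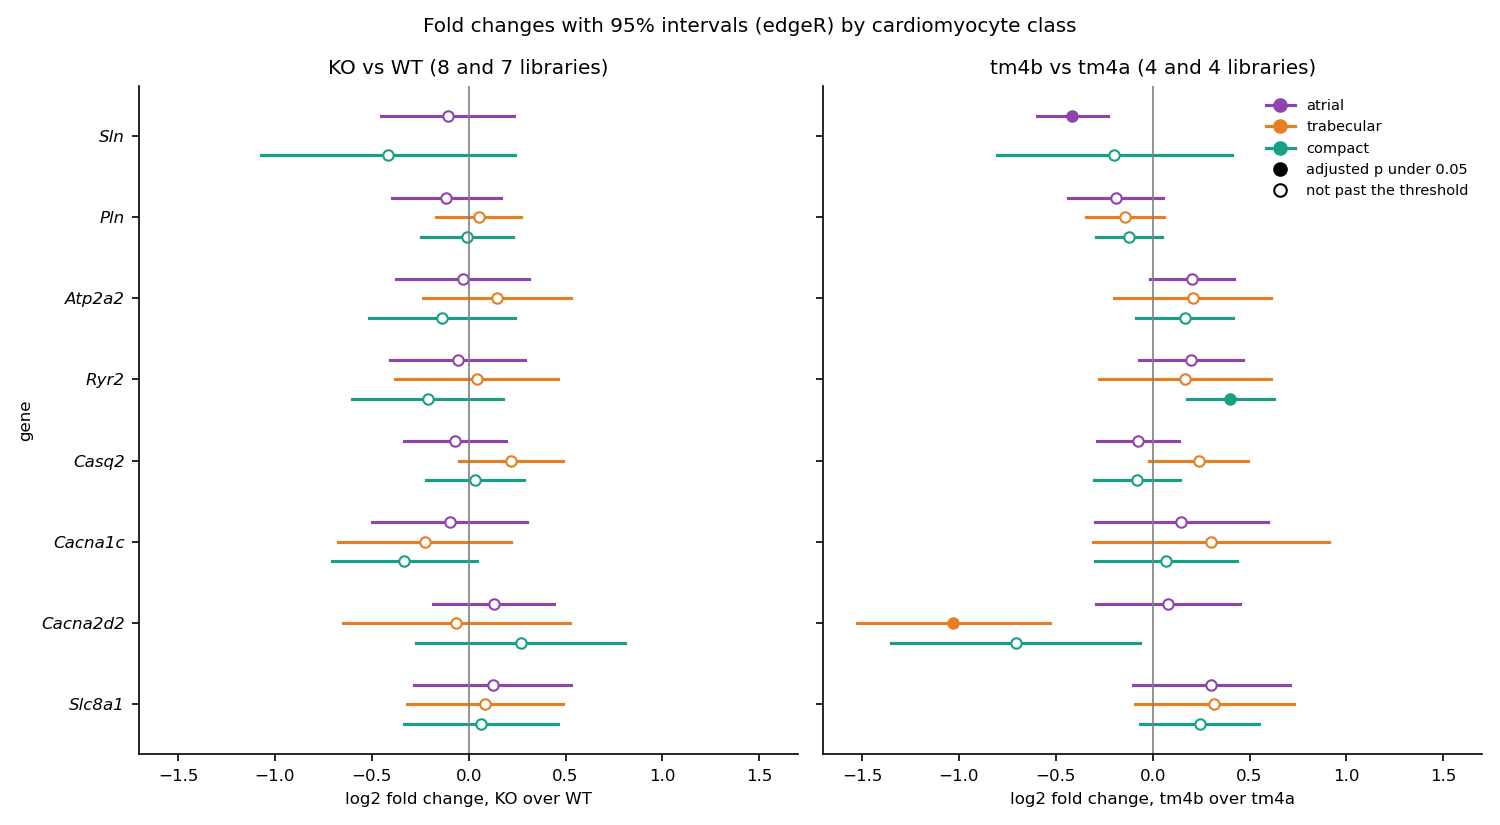
Log2 fold change of each gene with its 95% interval (edgeR), KO over WT on the left and tm4b over tm4a on the right, in atrial-type, trabecular-type and compact cells. Filled points passed an adjusted p of 0.05. All KO over WT points are open, and the filled points are Ryr2 in compact cells, Sln in atrial-type cells and Cacna2d2 in trabecular-type cells.

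Whether the KO effect differed between classes was tested directly. For atrial-type against compact cells no member passed (smallest adjusted p 0.957 by edgeR; 0.0109% of 9144 genes passed). For trabecular-type against compact cells no member passed either (0.0113% of 8835 genes); Atp2a2 had an interaction of 0.26 on the log2 scale (SE 0.09, edgeR adjusted p = 0.857) and Casq2 of 0.19 (SE 0.08, edgeR adjusted p = 1.0), and these 2 lay below an unadjusted p of 0.05, as did 421 of the 8835 genes. Casq2 in trabecular-type cells averaged 1052 ± 184 CPM in KO and 899 ± 194 CPM in WT, and Atp2a2 584 ± 147 CPM in KO and 517 ± 181 CPM in WT.

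Among the 8 genes, only Slc8a1 had ranges in WT1 to WT4 and in WT5 to WT7 that did not overlap. This held in all cardiomyocyte-like, compact and trabecular-type cells, not in atrial-type cells. The share of all genes that split the WT libraries in this way is not given here, so the split is not read as particular to it. In compact cells Slc8a1 ran at 88.0, 149 and 194 CPM in KO (lowest, median and highest) and at 69.9, 166 and 209 CPM in WT. Within WT it was 166 to 209 CPM in WT1 to WT4 and 69.9 to 93.1 CPM in WT5 to WT7, with no overlap; WT1 to WT4 carry an earlier form of label and come from litters 1 and 2, and WT5 to WT7 from litters 3 and 4. No flow cell held libraries of both WT sets. KO libraries lay across both sets. The compact class was made of different shares of its clusters in these libraries: cluster 0 gave 70.4 to 77.0% of compact cells in WT1 to WT4, 44.2 to 48.0% in WT5 to WT7 and 52.4 to 58.1% in KO. Within cluster 0 alone Slc8a1 ran from 100.4 to 198 CPM in KO, from 171 to 208 CPM in WT1 to WT4 and from 72.0 to 91.8 CPM in WT5 to WT7, so the WT sets stayed apart there, and within cluster 4 they overlapped (59.9 to 224 CPM in WT1 to WT4, 50.9 to 98.9 CPM in WT5 to WT7). Against WT5 to WT7 alone Slc8a1 was higher in KO by 0.69 on the log2 scale in all cardiomyocyte-like cells (edgeR adjusted p = 0.0162) and by 0.80 in compact cells (edgeR adjusted p = 0.0102). It did not pass in atrial-type (0.62, edgeR adjusted p = 0.118) or trabecular-type cells (0.74, edgeR adjusted p = 0.0990). With the flow cell as a covariate, which compares all KO libraries with WT5 on the flow cell they share, the log2 fold change was 0.50 (SE 0.40) in all and 0.66 (SE 0.41) in compact cells. The call thus depends on which WT libraries stand for WT, a choice made with earlier results known. The share of all genes that passed against WT5 to WT7 alone is not given here, so the call is not read as particular to Slc8a1.

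Within WT the same libraries stood at the ends in several classes. WT1 was highest and WT4 lowest for Atp2a2 in 5 of 5 muscle classes, and for Ryr2 WT1 was highest in 4 of 5 and WT4 lowest in 4 of 5, both at once in 3. In atrial-type cells Atp2a2 ran at 852, 1079.8 and 1373 CPM in KO (lowest, median and highest) and at 526, 1114 and 1986 CPM in WT. The WT libraries spanned the KO libraries on both sides. Pln was highest in WT2 in 4 of 5 classes and lowest in WT1 in 3. WT4 was also the library with the most haemoglobin RNA, whose part in its levels was not tested.

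**Figure D4:**
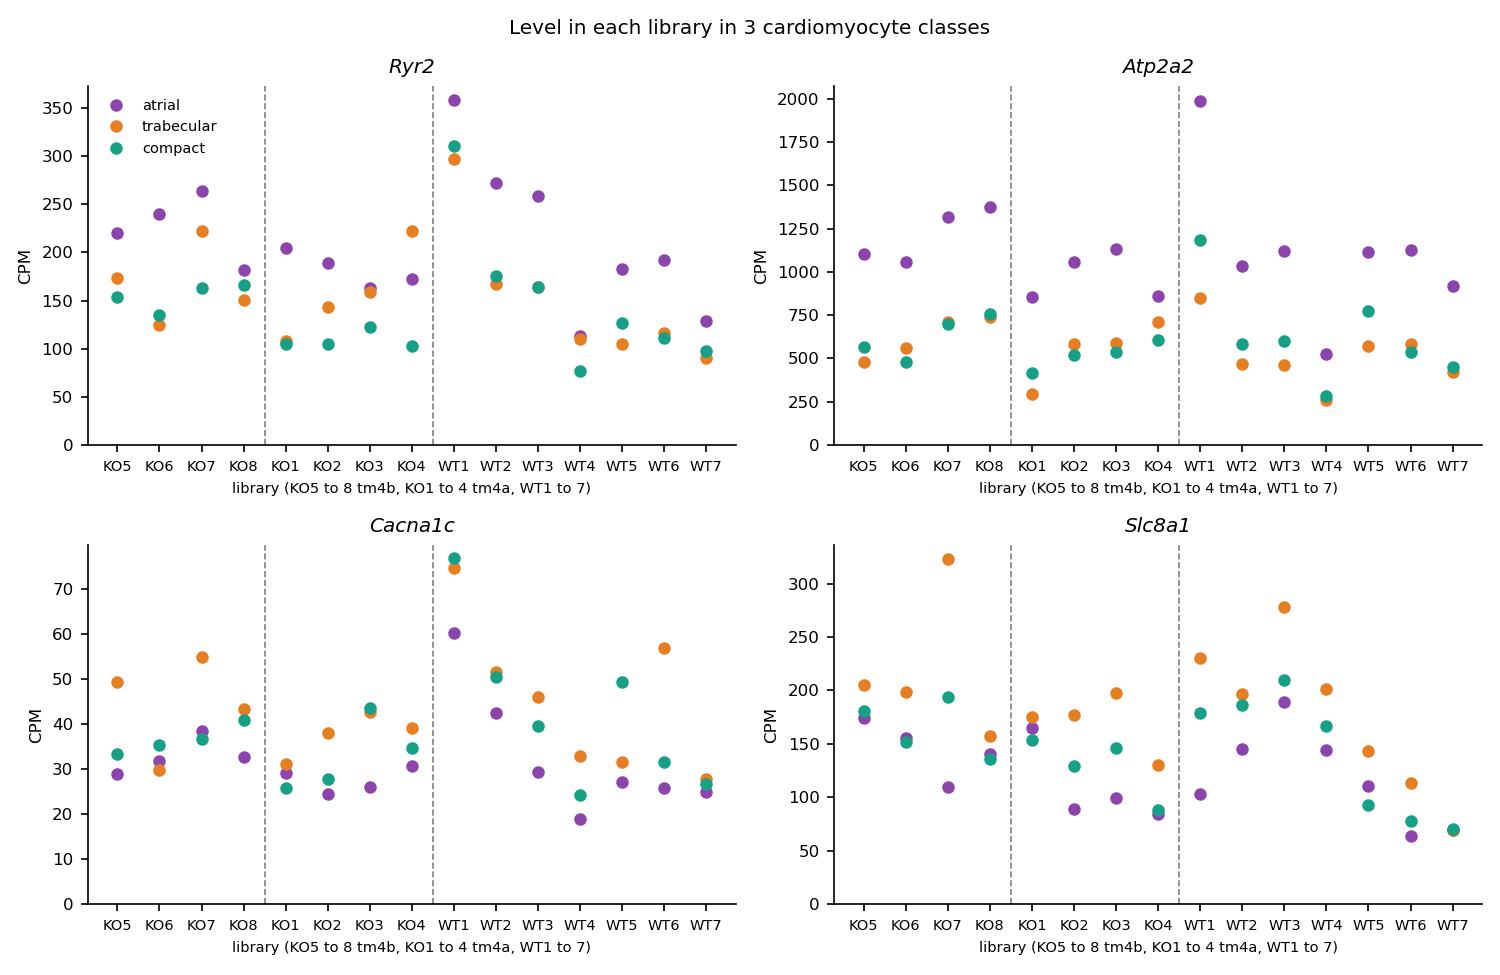
CPM per library of Ryr2, Atp2a2, Cacna1c and Slc8a1 in atrial-type, trabecular-type and compact cells, in the order KO5 to KO8 (tm4b), KO1 to KO4 (tm4a), WT1 to WT7. Atp2a2 and Ryr2 peak in WT1 and dip in WT4 in several classes at once, and Slc8a1 is lower in WT5 to WT7 than in WT1 to WT4 in compact and trabecular-type cells.

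A level over all cardiomyocyte-like cells also depends on how many of them belong to each class. Trabecular-type cells made up 7.13 ± 2.23% of cardiomyocyte-like cells in KO and 11.1 ± 4.40% in WT (2-sided exact permutation p = 0.0454, adjusted over 4 classes 0.139). Atrial-type cells made up 22.3 ± 4.35% in KO and 18.7 ± 7.42% in WT (exact permutation adjusted p = 0.292). Neither share passed the adjustment.

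Between the tm4b and tm4a alleles 1 member passed in each of the 4 comparisons. A single call among 8 genes is close to the share of all genes called in all cardiomyocyte-like (12.5%), compact (9.17%) and atrial-type cells (5.2%), and it is given below only as the values of that gene. The share of all genes whose tm4b and tm4a libraries did not overlap is not given here. A lack of overlap in any of the 4 comparisons is therefore not read as particular to the gene named. Over all cardiomyocyte-like cells Ryr2 rose in tm4b: it lay at 154, 149.9, 179 and 154 CPM in KO5 to KO8 (tm4b) and at 107, 120.2, 113 and 128 CPM in KO1 to KO4 (tm4a). Every tm4b library stood above every tm4a library. The means were 159 ± 13.4 CPM in tm4b and 117 ± 9.10 CPM in tm4a (SD, n = 4 each; log2 fold change 0.34, SE 0.09, edgeR adjusted p = 0.0209). Ryr2 was the 1 member of 8 that passed here, where 12.5% of 11234 genes passed. Pln was next, at -0.19 (SE 0.09, edgeR adjusted p = 0.171). Without TMM, edgeR's scaling between libraries, the median log2 fold change of all genes moved up by 0.11 over all cells, and the genes called were 1365 higher and 337 lower in tm4b, against 700 higher and 702 lower with it. The calls of Ryr2 and Sln held under both scalings.

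In compact cells Ryr2 again rose, with 154, 135, 163 and 166 CPM in tm4b and 105.0, 105, 122 and 103 CPM in tm4a. The groups did not overlap (log2 fold change 0.40, SE 0.11, edgeR adjusted p = 0.0238; 1 of 8 members, against 9.17% of 8924 genes). In atrial-type cells, from the same libraries, Ryr2 averaged 226 ± 34.4 CPM in tm4b and 182 ± 18.6 CPM in tm4a and did not pass (0.20, SE 0.13, edgeR adjusted p = 0.404). Whether the allele effect differed between classes was not tested. Leaving out KO3, KO5 or KO7 ended the call in all cells (0.28 to 0.33, edgeR adjusted p 0.0538 to 0.0885), and leaving out KO2, KO5, KO7 or KO8 ended it in compact cells (0.37 to 0.38, edgeR adjusted p 0.0661 to 0.0778), with the direction kept.

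Sln fell in the atrial-type cells of tm4b hearts. It lay at 1448, 1559, 1380.3 and 1380.5 CPM in KO5 to KO8 (tm4b) and at 1612, 1995, 1884 and 1632 CPM in KO1 to KO4 (tm4a). The 4 tm4b values were all below the 4 tm4a values (log2 fold change -0.41, SE 0.09, edgeR adjusted p = 0.0106; 1 of 8 members, against 5.2% of 7610 genes). Sln molecules per Atp2a2 molecule in these cells ran from 1.01 to 1.48 in tm4b and from 1.66 to 1.89 in tm4a, as Atp2a2 averaged 1213 ± 156 CPM in tm4b and 975 ± 140 CPM in tm4a (0.20, SE 0.10, edgeR adjusted p = 0.279). Without KO7 the Sln call was lost at -0.39 (edgeR adjusted p = 0.0544). The share of cluster 14, which has more Sln, was 31.4 ± 7.38% of atrial-type cells in tm4b and 29.0 ± 5.99% in tm4a.

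Cacna2d2 fell in the trabecular-type cells of tm4b hearts, with 39.5, 59.7, 76.2 and 70.2 CPM in tm4b and 94.9, 135, 155 and 97.9 CPM in tm4a. The groups did not overlap, and the means were 61.4 ± 16.1 CPM in tm4b and 120.6 ± 29.2 CPM in tm4a (log2 fold change -1.03, SE 0.24, edgeR adjusted p = 0.0438; 1 of 7 members tested, against 0.802% of 4113 genes). In compact cells it averaged 9.62 ± 4.06 CPM in tm4b and 13.6 ± 3.38 CPM in tm4a and did not pass (-0.71, SE 0.31, edgeR adjusted p = 0.160), and in atrial-type cells 317 ± 87.8 CPM in tm4b and 276 ± 68.7 CPM in tm4a (0.08, SE 0.18). The trabecular call was lost without KO2, KO3, KO5, KO6, KO7 or KO8 (-0.80 to -1.17, edgeR adjusted p 0.0559 to 0.155), without TMM (-0.97, edgeR adjusted p = 0.0604) and with cells of at least 500 genes (-1.01, edgeR adjusted p = 0.0565); DESeq2 gave -1.05 with no adjusted p.

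Set against WT, neither allele alone passed for these 3 genes. In compact cells Ryr2 stood at -0.04 (SE 0.24) in tm4b against WT and -0.44 (SE 0.25) in tm4a against WT. Sln in atrial-type cells stood at -0.33 (SE 0.21) in tm4b and 0.09 (SE 0.21) in tm4a, and Cacna2d2 in trabecular-type cells at -0.65 (SE 0.34) in tm4b and 0.40 (SE 0.32) in tm4a. Both comparisons share the WT libraries. With the tm4a libraries of litter 6 alone the same calls passed in tm4b over tm4a. Ryr2 stood at 0.31 in all (edgeR adjusted p = 0.0482) and 0.40 in compact cells (edgeR adjusted p = 0.0492). Sln stood at -0.45 (edgeR adjusted p = 0.0103) and Cacna2d2 at -1.19 (edgeR adjusted p = 0.0273). The tm4b libraries all came from the same litter too, so this setting compares litter with litter. Its p-values measure only the spread within litters, and it cannot tell an allele effect from a litter effect.

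Of the wider calcium list, 5 of 34 genes passed between alleles over all cardiomyocyte-like cells, where 12.5% of all genes did, a share close to the list's. Micu2, a gatekeeper of mitochondrial calcium uptake, rose by 0.66 (SE 0.14) in tm4b and the junctophilin Jph1, which ties the cell membrane to the store, by 0.59 (SE 0.17) on the log2 scale. S100a1 fell by 0.44 (SE 0.10), sorcin (Sri), a calcium sensor of the release channel, by 0.33 (SE 0.10) and the calmodulin gene Calm2 by 0.27 (SE 0.08). The list's median was 0.09 against 0.01 over all genes. In compact cells 6 of 31 passed, where 9.17% of all genes did: Jph1 (0.88, SE 0.26), Micu2 (0.86, SE 0.19) and the calmodulin-dependent kinase Camk2d (0.39, SE 0.12) were higher, and 3 were lower, among them Sri (-0.48, SE 0.12) and S100a1 (-0.36, SE 0.10). In atrial-type cells 2 of 30 passed, where 5.2% of all genes did, Micu2 at 0.79 (SE 0.19) and Calm2 at -0.35 (SE 0.09), and in trabecular-type cells 0 of 22 passed in edgeR and 0 in DESeq2, with 3 at an unadjusted edgeR p under 0.05, as for 589 of the 4113 genes.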

How the data were processed

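Single-cell suspensions of whole hearts were profiled by Drop-seq, 1 library per GEO sample, per the labels' protocols. The authors deposited raw UMI counts per gene and cell in 1 joined table, with cell names that carry the library; the submitters' processing notes name bcl2fastq 2.17, Seurat 2.1 and mm10, and the aligner and counter are not named in the sources used here. All values below come from those deposited counts. Cells with under 300 genes or over 30% mitochondrial UMIs were dropped, and 128 called doublets of 50899 scored cells (0.251%) were removed, a share so low that the caller cannot be taken to have worked; removing the 5% of highest scores in each library is an alternative. Cells were scaled to 10000 UMIs, and 2000 variable genes, without the calcium handling genes, gave 30 components, 20 neighbours and Leiden clusters at resolution 1.0 (scanpy 1.11.5, leidenalg 0.10.2, Python 3.11.15), named from marker lists. UMI counts were summed per library and class. CPM is a gene's UMIs per 1000000 of its class's sum in that library, with no scaling by gene length. Fold changes are from edgeR 4.0.16 (R 4.3.3; TMM, filterByExpr, quasi-likelihood test, Benjamini-Hochberg over all genes tested, threshold 0.05), tested on simulated counts; DESeq2 1.42.0 is an alternative. Because TMM rescales libraries, a fold change near 0 can differ in sign from the CPM means. Class comparisons hold library as a block, and shares of cells were tested by exact permutation (scipy 1.17.1). p-values measure the spread between libraries, and intervals and floors of single counts cover counting error only. In a cell sum, fewer molecules per cell and other cells in the class cannot be told apart. Genes of the wider calcium list named in the text are the 5 of largest change among those past the threshold in a comparison. The 8 genes, the lists and the choice of alternatives were made with earlier results of these data known.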

Additional observations from a re-analysis of the deposited data

Results flagged for a closer look

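A library that stood far from the others of its group by Dixon's criterion was found in 6 of 72 groups of 4 to 8 libraries, where chance gives about 1 in 20. WT1 gave 3 of the 6: Ryr2 at 311 CPM in compact cells (77.1 to 176 CPM in the other WT libraries), Ryr2 at 297 CPM in trabecular-type cells (90.2 to 167 CPM in the others) and Atp2a2 at 1986 CPM in atrial-type cells (526 to 1129 CPM in the others). Pln in atrial-type cells reached 700.2 CPM in WT5 (348 to 469.8 CPM in the others). Among the tm4a libraries, Sln in compact cells reached 39.6 CPM in KO4 (23.5 to 24.2 CPM in the others) and Ryr2 in compact cells 122 CPM in KO3 (103 to 105 CPM in the others). In compact cells KO3 is the tm4a library nearest to the tm4b libraries in Ryr2, all of which were above it there. Over all cardiomyocyte-like cells KO4 was the nearest, at 128 CPM.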

How the results depend on the processing

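Alternatives were other scaling and tests, other filters, other clusterings and each library left out. The 8 genes gave 0 calls between KO and WT in each class under all of them, except against WT5 to WT7 alone. There Slc8a1 passed in all cardiomyocyte-like and in compact cells, and the share of all genes passing in that setting is not given here. Between tm4b and tm4a the number of the 8 genes called ranged from 0 to 2 in all cardiomyocyte-like cells and from 0 to 1 in each class when 1 library was left out, Pln being added without KO4 (-0.27, edgeR adjusted p = 0.0433). In trabecular-type cells it was 0 with DESeq2, 0 without TMM and 0 with cells of at least 500 genes. Between atrial-type and compact cells Cacna1c reversed at Leiden resolution 1.5, to 0.0016. The KO minus WT share of trabecular-type cells ranged from -5.09 to -2.93 percentage points when 1 library was left out and was -5.40 at Leiden resolution 1.5, and without WT7 passed at -5.09 (exact permutation, adjusted p = 0.0373). The cause of these shifts was not tested.

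Counts over all genes moved more. KO against WT gave 153 genes in all cardiomyocyte-like cells and 2 to 880 under the alternatives, and tm4b against tm4a gave 1402 and 678 to 1702. The alternatives gave 0 to 202 genes between KO and WT in atrial-type, 0 to 478 in compact and 0 to 56 in trabecular-type cells, and 101 to 474, 426 to 1110 and 9 to 70 genes between tm4b and tm4a in the same classes (main counts 396, 818 and 33). Atrial-type against compact cells gave 4029 genes and 2643 to 5382 under the alternatives, trabecular-type against compact cells 2870 and 1672 to 3808, and atrial-type against trabecular-type cells 2716 and 1651 to 3462. With the titles' replicate number as a replicate block, KO against WT gave 4 genes in all cardiomyocyte-like, 6 in atrial-type, 0 in compact and 1 in trabecular-type cells, and 0 of the 8 members. Deviations of same-numbered KO and WT libraries correlated at -0.411 to 0.121 over 7 pairs, 1 of them over 0.1, and 0 KO libraries correlated best with their own number, so the numbers do not pair the libraries. Of 2291 recomputed values of single members, 560 stayed called in the same direction, 30 lost the call, 15 gained one, 1685 were not called either way and 1 reversed. DESeq2 called 422 genes between KO and WT in all cardiomyocyte-like, 98 in atrial-type, 156 in compact and 18 in trabecular-type cells, against 153, 23, 40 and 1 by edgeR. Its split was 76 higher and 22 lower in atrial-type cells (15 and 8 by edgeR) and 14 and 4 in trabecular-type cells (0 and 1), and without TMM compact cells gave 21 and 7 (25 and 15). Between alleles without TMM the split was 340 higher and 119 lower in atrial-type (149 and 247 with it), 727 and 215 in compact (381 and 437) and 17 and 13 in trabecular-type cells (11 and 22). Under DESeq2 the median gene shifted by 0.14 on the log2 scale in atrial-type over compact cells and 0.17 in trabecular-type over compact cells. Depth limits trabecular-type cells most, where 4653 genes were tested between KO and WT against 9000 in compact cells.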
